A study of Mus musculus with 6 samples.

Results

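The nuclear genes of the respiratory chain and of ATP synthase were examined in NOR-10, a fibroblast line from mouse skeletal muscle, with and without D-galactose (D-gal). Members were the genes of the deposited table whose symbols begin with Nduf followed by a, b, c, s or v, with Uqcr, with Cox4 to Cox8 or with Atp5, or are Sdha, Sdhb, Sdhc or Sdhd. The rule found 96 of 34745 genes, of which 92 are protein coding and 4 are processed pseudogenes. The D-gal group (n = 3 libraries) received 20 mg/mL D-gal for 3 days, a treatment the study used to bring fibroblasts into senescence. The control group (n = 3 libraries) received the same amount of PBS. The labels give the treatment, whereas the dose and the duration come from the study's methods. All libraries were made from this single cell line, and nothing says that they came from separate cultures, so that p-values measure only the spread between these libraries.

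The respiratory chain sits in the inner mitochondrial membrane and passes electrons from NADH and succinate to oxygen. Complex I oxidizes NADH, complex II oxidizes succinate, complex III passes electrons from ubiquinone to cytochrome c, and complex IV reduces oxygen. Complexes I, III and IV pump protons, and complex V, the ATP synthase, uses the resulting gradient to make ATP. Complex II is made from nuclear genes alone, while the other complexes combine many nuclear subunits with a few that the mitochondrial genome encodes.

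Counts of reads per gene were deposited, and each library held between 13759108 and 20830349 counts. All control libraries were deeper than all D-gal libraries. Counts were divided by library sizes scaled with TMM (trimmed mean of M values) and are given as normalized counts. A member was called when its adjusted p was under 0.05 in the quasi-likelihood test of edgeR, adjusted by Benjamini-Hochberg over the 13407 genes tested, and it passed both thresholds when its log2 fold change was also at least 1 in size. Fold changes are D-gal against control on the log2 scale, with their standard error (SE). In such bulk samples, fewer cells of a type and less RNA per cell cannot be told apart. Of the 10 fibroblast markers examined, 9 were tested and their summed level lay between 127850 and 131117 normalized counts in the control group and between 83919 and 89365 in the D-gal group. Among them 6 fell and 1 (Pdgfrb) rose (77.8% called, against 34.8% of all genes tested), and Lum had at most 0.816 normalized counts in any library. The myogenic regulators Pax7, Myf5 and Myod1 and the adipocyte genes Adipoq and Ucp1 had 0 counts in every library. Summed levels were 128 to 136 in the control and 99.9 to 115 in the D-gal libraries for 12 myogenic markers, and 75.9 to 90.6 against 51.8 to 56.8 for 6 endothelial markers. They were 70.7 to 285 against 74.1 to 96.1 for 6 leukocyte markers, with Ptprc at 11.3 or below, and 16.2 to 27.9 against 20.2 to 33.7 for 6 adipocyte markers. The part of these differences in the results below was not tested.

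The nuclear respiratory chain genes differed little between the D-gal group and the control group. Of the 86 members tested, 15 were called (17.4%), against 34.8% of all genes tested, and 71 were not. Expression was higher under D-gal in 6 members (16.9% of all genes tested were called higher) and lower in 9 (17.8% of all genes tested were called lower). No member passed both thresholds in edgeR, where 4.21% of all genes tested did, nor did any in DESeq2 or limma, while 27 members had an unadjusted p under 0.05. With offsets that remove trends over the GC content and length of 1 reference transcript per gene, 8 members were higher and 7 lower. With limma on log2(FPKM + 1) these numbers were 10 and 8, and with all libraries thinned to the smallest total 5 and 7. In edgeR, the median log2 fold change of the members was -0.04 and their range -0.32 to 0.54, beside a median of 0.0036 for all genes tested. The median size of the log2 fold change was 0.12 among the members and 0.19 among all genes tested. The groups of libraries did not overlap in 32 members (37.2%), against 49.1% of all genes tested. Members are mostly well expressed, so the genes whose average level lay in the range of the middle 80% of the members were read beside them, and 35.6% of these 8117 genes were called. The 95% interval of the fold change lay within 1.5-fold in either direction for 76 of the 86 members and within 1.25-fold for 53, while in 3 members it reached a fold of 2. It lay within 1.5-fold for 6495 of the 8117 genes of like level and within 1.25-fold for 3535. Among all 13407 genes tested, these numbers were 8588 and 4663.

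**Figure D1:**
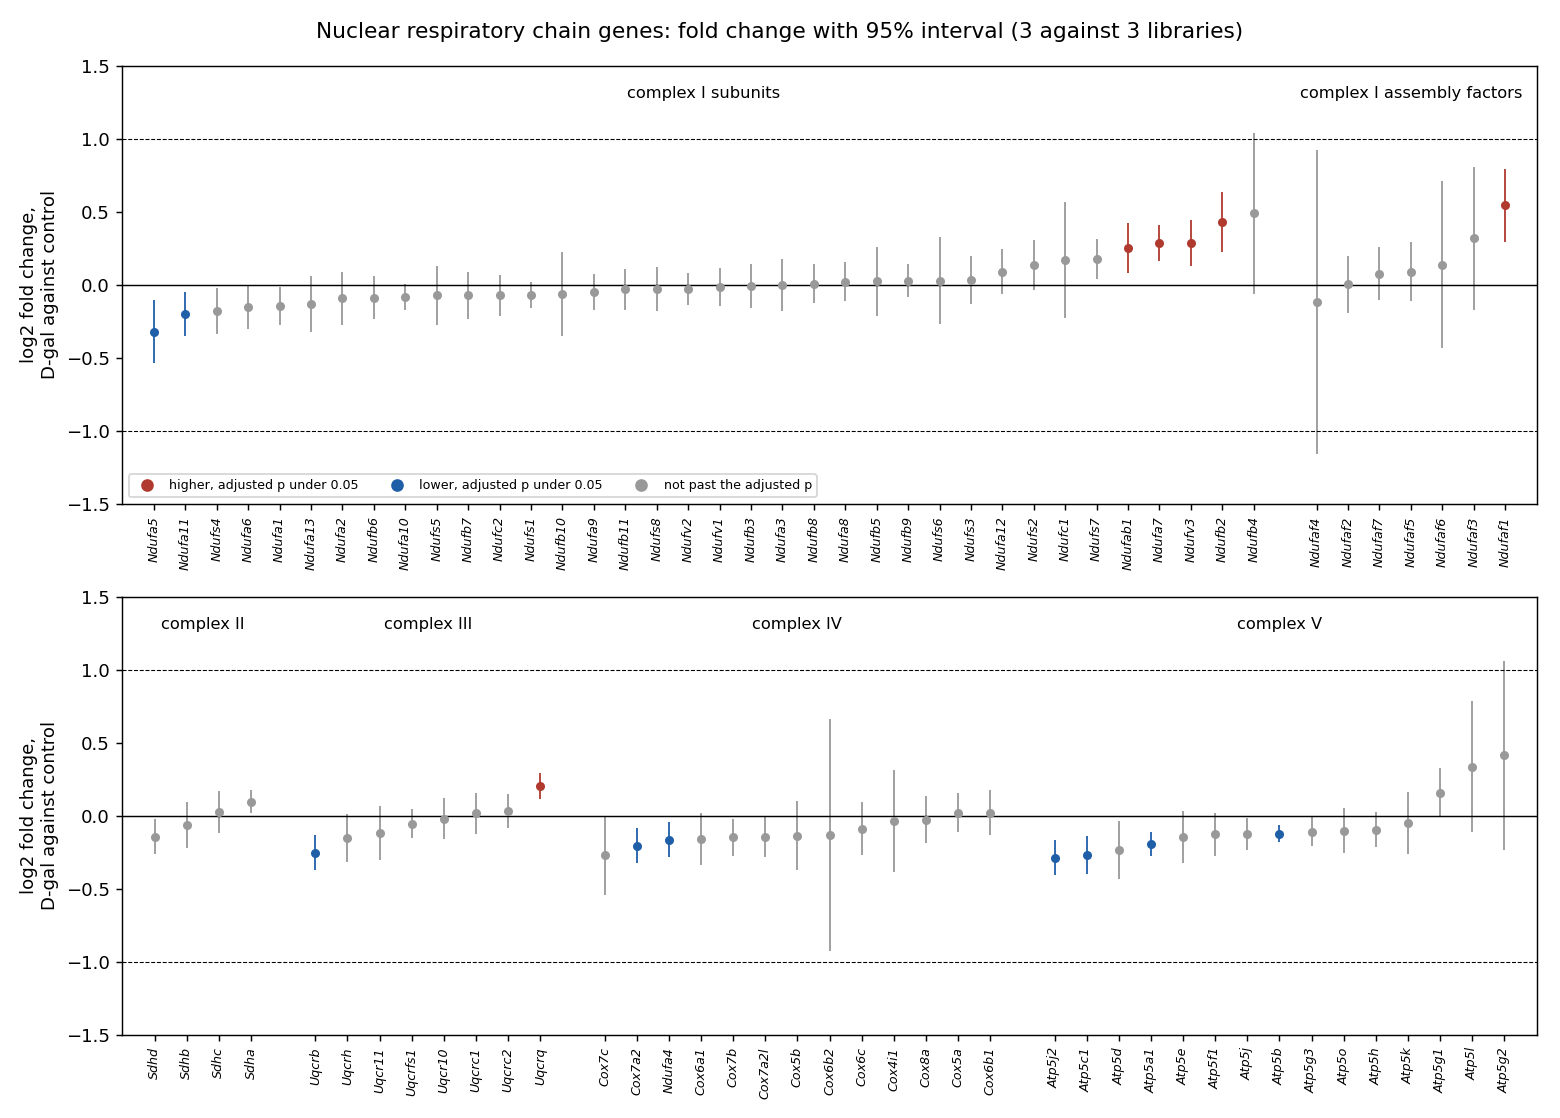
Log2 fold change of each tested subunit and complex I assembly factor, D-gal against control, with its 95% interval, grouped by complex (red: higher at an adjusted p under 0.05, blue: lower, grey: not past it, dashed lines: a log2 fold change of 1). The called members lie between -0.32 and 0.54, the called members of complexes IV and V are all lower, and the bars of Ndufaf4, Cox6b2, Atp5g2, Ndufaf6 and Ndufb4 are the longest.

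The plot of fold changes by complex shows how the complexes differed in their counts. Complex I had 4 higher and 2 lower subunits of 36 tested (median -0.02), and its 7 assembly factors tested had 1 higher and 0 lower (median 0.09). No gene of complex II was called among 4 (median -0.02), at an unadjusted p under 0.05 in 2 of them. Complex III had 1 higher and 1 lower among 8 (median -0.04). In complex IV, 0 were higher and 2 lower among 13 (median -0.14), so that 15.4% were called lower. In complex V, 0 were higher and 4 lower among 15 (median -0.12), so that 26.7% were called lower. Of all genes tested, 17.8% were called lower and 16.9% higher. In every complex and among the complex I assembly factors, the share called in either direction was below the 34.8% of all genes tested. Differences between complexes were described by these counts and medians and not tested. The median of complex I turned to 0.012 with the GC and length offsets and 0.011 with limma. That of complex V was -0.06 with these offsets, and -0.20 without the members that share over 20% of their sequence words with other genes.

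Upstream sequences were read for the members, because nuclear respiratory factor 1 (NRF1), ETS factors such as GABP, and YY1 are known to act on many respiratory chain promoters. RefSeq windows (GRCm38.p6) run from 250 bases before to 50 after a gene's start and were matched by symbol for 73 of the 92 protein-coding members, in 78 windows. The letters searched on both strands were GCGCA followed by any base and GCGC for NRF1, CCGGAAG for ETS factors, AAGATGGC for YY1, GGGCGG for SP1 and TATAAA for the TATA box, and none of these contains another. NRF1 letters stood in 20 of the 78 windows (25.6%), in 4.6% of all 32851 windows and in 9.74% of the 12492 windows of genes tested. ETS letters stood in 21.8% of member windows, 8.86% of all windows and 16.9% of those of genes tested. YY1 letters stood in 11.5%, 2.75% and 4.31% of them, respectively. SP1 letters stood in 42.3% of member windows, 35.7% of all windows and 62.4% of those of genes tested, and the TATA letters in 10.3%, 13.6% and 7.20%. By complex, NRF1 letters were in 6 of 16 windows of complex V and 8 of 34 of complex I, but in 1 of 14 of complex IV. YY1 letters were in 7 windows of complex I and 2 of complex V and in none of the windows of complexes II, III and IV. A match of letters is a description and not a binding site.

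Of the 15 called members, 12 had a window, and 5 of these held NRF1, ETS or YY1 letters. Among the 12, 3 held NRF1, 1 ETS and 1 YY1 letters, beside 25.6%, 21.8% and 11.5% of all member windows. The 5 are shown because their members were called and their windows held such letters. The matched letters are in capitals, 5′ to 3′ on the strand of the gene. They are Atp5c1 (chr2:10080383-10080682, minus strand, NRF1 letters from base -17), Atp5j2 (chr5:145191492-145191791, minus strand, YY1 letters from base 24), Ndufa5 (chr6:24527477-24527776, minus strand, NRF1 letters from base -190), Ndufa11 (chr17:56717512-56717811, plus strand, NRF1 letters from base -60) and Ndufaf1 (chr2:119662785-119663084, minus strand, ETS letters from base -18). Bases are counted from the RefSeq start that each window is built on, which can differ from the gene ends given with the values, and the whole windows of Atp5j2 and Ndufa5 lie inside those genes. Atp5c1 has a further window, which held none of the letters searched, and Ndufa5 a further one that also held NRF1 letters.
Atp5c1: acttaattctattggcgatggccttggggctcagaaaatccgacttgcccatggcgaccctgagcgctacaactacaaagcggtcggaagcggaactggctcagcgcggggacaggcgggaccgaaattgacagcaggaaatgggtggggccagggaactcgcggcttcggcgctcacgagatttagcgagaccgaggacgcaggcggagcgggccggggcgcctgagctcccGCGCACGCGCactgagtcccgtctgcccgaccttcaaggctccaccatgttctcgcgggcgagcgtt
Atp5j2: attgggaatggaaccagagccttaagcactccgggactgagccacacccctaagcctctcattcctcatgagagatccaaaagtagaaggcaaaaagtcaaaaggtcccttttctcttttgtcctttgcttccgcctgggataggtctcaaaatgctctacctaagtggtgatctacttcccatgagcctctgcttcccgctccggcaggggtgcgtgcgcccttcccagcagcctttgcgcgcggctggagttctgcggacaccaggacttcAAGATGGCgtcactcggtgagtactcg
Ndufa5: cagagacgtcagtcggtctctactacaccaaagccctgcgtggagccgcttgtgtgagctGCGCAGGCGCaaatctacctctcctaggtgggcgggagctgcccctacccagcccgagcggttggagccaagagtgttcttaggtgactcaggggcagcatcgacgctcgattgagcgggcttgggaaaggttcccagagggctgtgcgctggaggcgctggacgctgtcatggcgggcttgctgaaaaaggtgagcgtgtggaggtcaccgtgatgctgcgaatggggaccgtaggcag
Ndufa11: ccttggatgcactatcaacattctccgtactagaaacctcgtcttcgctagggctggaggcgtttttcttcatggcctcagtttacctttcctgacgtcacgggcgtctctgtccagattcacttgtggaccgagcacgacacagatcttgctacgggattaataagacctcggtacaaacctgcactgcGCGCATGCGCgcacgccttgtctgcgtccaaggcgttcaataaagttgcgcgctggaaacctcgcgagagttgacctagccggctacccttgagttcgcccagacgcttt
Ndufaf1: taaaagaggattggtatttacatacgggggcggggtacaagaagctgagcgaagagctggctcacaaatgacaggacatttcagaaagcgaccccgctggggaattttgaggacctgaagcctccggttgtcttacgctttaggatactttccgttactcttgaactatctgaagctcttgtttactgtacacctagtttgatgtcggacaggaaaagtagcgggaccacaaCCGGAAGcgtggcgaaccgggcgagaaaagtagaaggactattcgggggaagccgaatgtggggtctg
Of the windows shown, the 3 with NRF1 letters and the 1 with YY1 letters belong to members that fell, and the 1 with ETS letters to a member that rose. The letters themselves were also in windows of members that were not called. Whether letters and direction are related was not tested, and 5 windows picked for their letters are too few to show it.

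Complex I has 7 nuclear core subunits, which carry the flavin and the iron-sulfur clusters, and 29 accessory subunits were tested beside them. None of the core subunits was called, and their log2 fold changes lay between -0.07 and 0.17, at an unadjusted p under 0.05 in 1 of them. This was Ndufs7, which holds the iron-sulfur cluster that hands electrons to ubiquinone, with a log2 fold change of 0.17 ± 0.06 and an adjusted p of 0.0507. The large subunit Ndufs1 had 1627, 1652 and 1702 normalized counts in the control libraries, against 1552, 1571 and 1619 under D-gal, a log2 fold change of -0.07 ± 0.04 (adjusted p = 0.198). Ndufv1, the NADH-binding subunit, had a log2 fold change of -0.02 ± 0.06.

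Of the 29 accessory subunits, 4 rose, 2 fell and 23 were not called (20.7% called, against 34.8% of all genes tested). Ndufa7 (ENSMUSG00000041881, chromosome 17, 33824591 to 33838316), a subunit of the matrix arm, had 798, 768 and 811 normalized counts in the control libraries, against 959.5, 923 and 1015 under D-gal. All D-gal libraries lay above all control libraries, with a log2 fold change of 0.29 ± 0.05 (SE) and an adjusted p of 0.00513. Ndufb2 (ENSMUSG00000002416, chromosome 6, 39592574 to 39603382), a subunit of the membrane arm, had 227, 255 and 219 in the control libraries, against 309, 308 and 331 under D-gal. Its groups did not overlap either, and its log2 fold change of 0.43 ± 0.09 (adjusted p = 0.00738) was the largest among the called subunits of all complexes. Of the sequence words of Ndufb2, 45.4% also occur in other annotated genes, the most in Gm42420. The gene overlaps Gm42420 on the same strand and Braf and Gm16272 on the other strand, so that its counts are less certain. Ndufv3 (ENSMUSG00000024038, chromosome 17, 31520115 to 31531326), a small subunit of the NADH-binding part, had 573, 518 and 538 in the control libraries, against 698, 628 and 660.3 under D-gal. It rose in every D-gal library, by 0.29 ± 0.07 on the log2 scale (adjusted p = 0.0126). Ndufab1, the mitochondrial acyl carrier protein that also serves fatty acid synthesis in the matrix, had 354, 373 and 362 in the control libraries, against 447, 449.9 and 399 under D-gal. Its log2 fold change was 0.25 ± 0.07 (adjusted p = 0.0320), and 38.2% of its words are shared with other genes.

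The lower accessory subunits were Ndufa5 and Ndufa11, the latter close to the threshold. Ndufa5 (ENSMUSG00000023089, chromosome 6, 24518666 to 24528013), a subunit of the matrix arm, had 469.7, 415 and 379.7 normalized counts in the control libraries, against 339, 322 and 352 under D-gal. The control libraries spread more widely than the D-gal libraries but did not overlap with them, and the log2 fold change was -0.32 ± 0.09 (adjusted p = 0.0299). Ndufa11 (ENSMUSG00000002379, chromosome 17, 56717762 to 56724248), a subunit of the membrane arm, had 797, 716 and 706 in the control libraries, against 657, 657 and 621 under D-gal. Its lowest control library stood just above its highest D-gal library, with a log2 fold change of -0.20 ± 0.07 (adjusted p = 0.0476), and 28.2% of its words are shared. Ndufb4 had only 21.2 to 24.4 normalized counts in the control libraries and 25.1 to 38.2 in the D-gal libraries, and shares 38.3% of its words with other genes, the most with Ndufb4c. Its log2 fold change of 0.49 had a 95% interval of -0.06 to 1.04.

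The complex I assembly factors named Ndufaf build the complex without being part of it. Ndufaf1 (ENSMUSG00000027305, chromosome 2, 119655446 to 119662827), which acts on the membrane arm early in assembly, had 225, 226 and 282 normalized counts in the control libraries, against 366, 366 and 334 under D-gal. Every D-gal library was above every control library, and the log2 fold change of 0.54 ± 0.11 (adjusted p = 0.00590) was the largest of all called members. Ndufaf3 and Ndufaf5 were not called, with log2 fold changes of 0.32 ± 0.21 and 0.09 ± 0.09. Ndufaf4, named here after its values were seen, varied more within groups than between them. It had 435, 415 and 156 normalized counts in the control libraries, against 220.0, 197 and 518 under D-gal, which left an interval of -1.16 to 0.92 for its log2 fold change. Of the 8 other complex I assembly genes in the table, 1 was called (12.5%, against 34.8% of all genes tested). This was Foxred1, at 295, 278 and 269.6 normalized counts in the control and 352, 367 and 354 in the D-gal libraries (log2 fold change 0.35 ± 0.07, adjusted p = 0.00803). Tmem186 had a log2 fold change of 0.13 ± 0.07 (adjusted p = 0.203).

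Complex II, succinate dehydrogenase, also belongs to the citric acid cycle. Its flavoprotein Sdha had 3661, 3800 and 3781 normalized counts in the control libraries, against 4122, 3920 and 3956 under D-gal (log2 fold change 0.09 ± 0.03, adjusted p = 0.0693). The membrane anchor subunit Sdhd had 1273, 1397 and 1332 in the control libraries, against 1260, 1176 and 1186 under D-gal (log2 fold change -0.14 ± 0.05, adjusted p = 0.0633). In both genes the groups did not overlap, in opposite directions, and neither passed the threshold. The iron-sulfur subunit Sdhb and the other anchor subunit Sdhc had log2 fold changes of -0.06 ± 0.07 and 0.02 ± 0.06. All 4 intervals lay within 1.25-fold. Among 4 assembly factors of complex II, 1 was called, a smaller share than the 34.8% of all genes tested. This was Sdhaf2, which helps to attach the flavin to Sdha. It rose from 919, 920.4 and 981 to 1071, 1107 and 1106 normalized counts (log2 fold change 0.22 ± 0.05, adjusted p = 0.00945). Sdhaf3 had a log2 fold change of 0.32 ± 0.15 (adjusted p = 0.137).

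In complex III, 2 small subunits of the membrane part moved in opposite directions. Uqcrq (ENSMUSG00000044894, chromosome 11, 53427922 to 53430831) had 1335, 1348 and 1306 normalized counts in the control libraries, against 1489, 1548 and 1548 under D-gal. Its libraries agreed closely within each group, and it rose by 0.20 ± 0.04 on the log2 scale (adjusted p = 0.00553). Uqcrb (ENSMUSG00000021520, chromosome 13, 66900617 to 66905378), which lies near the ubiquinone site, had 925, 863 and 909 in the control libraries, against 778, 746 and 736 under D-gal. It fell in every D-gal library, with a log2 fold change of -0.25 ± 0.05 (adjusted p = 0.00727), and 58.2% of its words are shared with other genes. The hinge protein Uqcrh, which helps cytochrome c to dock, had a log2 fold change of -0.15 ± 0.07 (adjusted p = 0.136). The core proteins Uqcrc1 and Uqcrc2 and the Rieske iron-sulfur protein Uqcrfs1 had log2 fold changes of 0.01 ± 0.06, 0.03 ± 0.05 and -0.06 ± 0.04. None of 7 further complex III genes outside the rule was called, and 1 of them had an unadjusted p under 0.05. The assembly factors Uqcc1 and Uqcc3 had log2 fold changes of 0.47 ± 0.20 (adjusted p = 0.111) and -0.25 ± 0.12 (adjusted p = 0.133).

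Complex IV, cytochrome c oxidase, has several subunits that exist as paralogs for single tissues, and NOR-10 cells expressed the widespread ones. Cox7a2 (ENSMUSG00000032330, chromosome 9, 79755241 to 79759853), the widespread form of subunit 7a, had 645, 675 and 655 normalized counts in the control libraries, against 577, 562 and 572 under D-gal. It fell with little spread in either group (log2 fold change -0.21 ± 0.05, adjusted p = 0.0180). Ndufa4 (ENSMUSG00000029632, chromosome 6, 11900292 to 11907497), first assigned to complex I and now counted with complex IV, had 1613, 1581 and 1451 in the control libraries, against 1359, 1352 and 1434 under D-gal. Its lowest control and highest D-gal library nearly met, and the log2 fold change was -0.16 ± 0.05 (adjusted p = 0.0408). Cox7b had 1639, 1449 and 1597 in the control libraries, against 1438, 1360 and 1425 under D-gal (log2 fold change -0.15 ± 0.05, adjusted p = 0.0684). Cox7a2l, which helps to join complexes III and IV into supercomplexes, had a log2 fold change of -0.15 ± 0.06 (adjusted p = 0.0913). Of the 13 complex IV members tested, 11 had a log2 fold change below 0, beside 6622 of the 13407 genes tested. Those called lower were 2 of the 13 (15.4%, against 17.8% of all genes tested).

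The paralogs of muscle, lung, testis and hypoxic cells were near or at 0 counts. Cox6a2, Cox7a1 and Cox8b, the forms of heart and skeletal muscle, had at most 4.08 normalized counts in any library, with 0 counts of Cox8b in all 6. Cox4i2, a form of lung and hypoxic cells, had 2.61 normalized counts in 1 control library and 0 in the other libraries. Ndufa4l2, known to be induced in hypoxia, had 2.02 in 1 control library and 0 elsewhere, and the testis forms Cox7b2 and Cox8c had at most 1.12. A count of 0 allows up to 3 counts in a library of these totals, so that these paralogs were not detectable at this depth rather than absent. None of these 7 genes was tested. The testis form Cox6b2 was tested at 22.2 to 35.7 normalized counts in the control libraries and 14.2 to 32.5 in the D-gal libraries, with an interval of -0.93 to 0.66 for its log2 fold change. Their widespread partners were at far higher levels, such as Cox6a1 at 2824, 2295 and 2756 normalized counts in the control libraries, against 2251, 2441 and 2357 under D-gal. Cox8a had 2424, 2156 and 2612 in the control libraries, against 2249, 2347 and 2450 under D-gal, and the groups of both genes overlapped. Cox4i1 had 3140, 2108 and 2938 against 2480, 2400 and 3086, a wide spread within each group, and its log2 fold change had an interval of -0.39 to 0.31. Among 23 complex IV assembly genes tested, 3 rose and 1 fell (17.4% called, against 34.8% of all genes tested), with a median log2 fold change of 0.13. Coa5 rose from 1809, 1856 and 1835 to 2099, 2127 and 2098 normalized counts (log2 fold change 0.20 ± 0.03, adjusted p = 0.00237), and Cmc2 fell from 212, 199.9 and 204 to 154, 134 and 107 (log2 fold change -0.64 ± 0.14, adjusted p = 0.00811).

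The ATP synthase joins a catalytic head in the matrix, F1, to a membrane rotor, Fo, by a central and a peripheral stalk. All 5 F1 genes had log2 fold changes below 0, as did 6622 of the 13407 genes tested. Of the 5, 3 were called, all of them lower, where 17.8% of all genes tested were called lower. Atp5b (ENSMUSG00000025393, chromosome 10, 128083273 to 128090391), the catalytic beta subunit, had 21778, 22175 and 22224 normalized counts in the control libraries, against 20160, 19957 and 20617 under D-gal. Its change was small but exceeded the spread of these well-counted libraries (log2 fold change -0.12 ± 0.02, adjusted p = 0.00589). Atp5a1 (ENSMUSG00000025428, chromosome 18, 77773729 to 77782869), the alpha subunit, had 8344, 8689 and 8643 in the control libraries, against 7252, 7824 and 7351 under D-gal. It fell in every D-gal library, with a log2 fold change of -0.20 ± 0.04 (adjusted p = 0.00485). Atp5c1 (ENSMUSG00000025781, chromosome 2, 10056016 to 10080510), the gamma subunit that turns inside the head, had 2693, 2926 and 2696 in the control libraries, against 2181, 2237 and 2477 under D-gal. Its window is among those shown above, and its log2 fold change was -0.27 ± 0.06 (adjusted p = 0.00823). The delta subunit Atp5d had 2539, 2431 and 2347 against 2156, 1779 and 2287 (log2 fold change -0.23 ± 0.09, adjusted p = 0.0667), and the epsilon subunit Atp5e had a log2 fold change of -0.15 ± 0.08 (adjusted p = 0.179). Neither passed the threshold, although the groups of Atp5d did not overlap.

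Among the 10 genes of Fo and the stalks, 1 (Atp5j2) was called, a smaller share than the 34.8% of all genes tested. Atp5j2 (ENSMUSG00000038690, chromosome 5, 145183698 to 145192062), the f subunit of the membrane part, had 1644, 1702 and 1599 normalized counts in the control libraries, against 1313, 1301 and 1439 under D-gal. Of all called members it had the smallest adjusted p, 0.00363, and a log2 fold change of -0.29 ± 0.05. The c subunits that form the rotor ring come from 3 paralogs that encode the same mature protein. Their log2 fold changes were -0.11 ± 0.04 (adjusted p = 0.0806) for Atp5g3, 0.16 ± 0.07 (adjusted p = 0.134) for Atp5g1 and 0.41 ± 0.28 (adjusted p = 0.297) for Atp5g2. Atp5g1 and Atp5g2 share 67.3% and 100% of their words with other genes, whereas Atp5g3 shares none. Atp5l, the g subunit, had only 31.01 to 36.4 normalized counts in the control and 36.0 to 47.1 in the D-gal libraries, and 85.4% of its words are shared, the most with Gm10221. Whether the sharing lowered its counts was not tested. Atp5s and Atp5sl carry the name but are not subunits of the enzyme, and neither was called (log2 fold changes 0.07 ± 0.18 and -0.02 ± 0.17). Of the 4 pseudogenes, Atp5l2-ps was tested and not called (log2 fold change 0.35 ± 0.22), and the other 3 had at most 10.1 normalized counts in any library. Of 3 ATP synthase assembly genes tested, none was called and none had an unadjusted p under 0.05, with log2 fold changes of -0.08 ± 0.08 for Atpaf2 and -0.11 ± 0.28 for Tmem70.

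**Figure D2:**
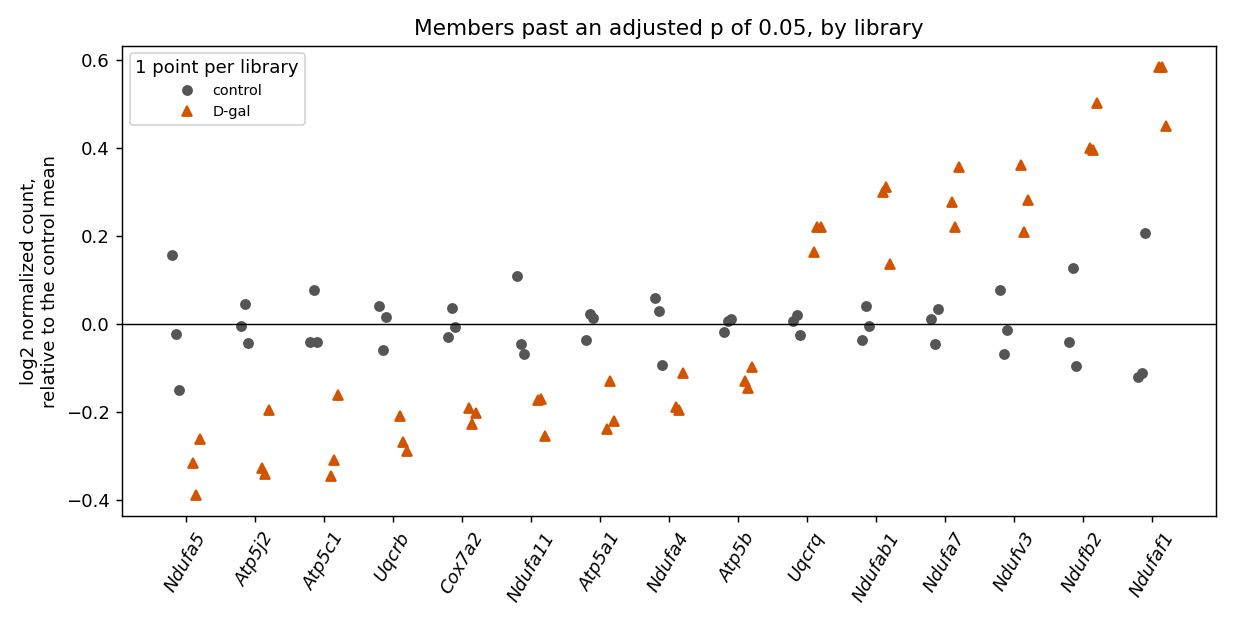
Normalized count of each of the 15 called members in each library, on the log2 scale relative to the control mean (grey circles: 3 control libraries, orange triangles: 3 D-gal libraries), ordered by fold change. In each member the D-gal points lie on one side of all control points, from 9 lower members on the left to 6 higher on the right.

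The plot of called members by library shows that the groups did not overlap in any of the 15, nor did they in 49.1% of all genes tested. The 15 were picked by their calls in these same libraries, so this adds no support to the calls. For each of them, an exact two-sided permutation of the group labels gave p = 0.1, the smallest that 3 against 3 libraries allow, so that the calls rest on the fit across all genes. The calls of Ndufa7, Ndufb2, Ndufv3, Ndufaf1, Uqcrb, Uqcrq, Atp5a1, Atp5b, Atp5c1 and Atp5j2 held in all 14 other settings of the fit. The calls of Cox7a2, Ndufa5, Ndufa4, Ndufab1 and Ndufa11 were lost in 5, 6, 9, 9 and 12 of the 14. Cox7a2 lost its call without control replicate 2 or D-gal replicate 2, and its log2 fold change lay between -0.22 and -0.14 over all settings. Ndufa4 lost it without control replicates 1 or 2 or D-gal replicates 1 or 2 (-0.21 to -0.10), and Ndufa5 without control replicates 1 or 2 or any D-gal replicate (-0.40 to -0.24). The call of Ndufab1 was lost without any of the control replicates or D-gal replicates 1 or 2 (0.21 to 0.30), and that of Ndufa11 without any single replicate (-0.23 to -0.13). Atp5c1, Ndufa5, Ndufab1 and Ndufa11 were outside the naming rule and are described because they were called. Uncalled members outside it, such as Ndufs7, Ndufb4, Atp5d and Atp5l, were chosen for their role or after their values were seen.

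Levels of different genes were compared per length, as normalized counts per kb of 1 reference transcript per gene. Among the tested members, the median control level was 687 per kb in complex I, 820 in complex II, 1674 in complex III, 1956 in complex IV and 1726 in complex V, and 168 for the complex I assembly factors. Atp5b stood highest at 11513 per kb, followed by Cox6a1 at 4597, Cox8a at 4359, Cox6c at 3917 and Cox4i1 at 3663. Replicate spread leaves the order of Cox6a1, Cox8a, Cox6c and Cox4i1 open, since for example the control libraries of Cox4i1 ranged from 2108 to 3140 normalized counts. This order also depends on the length that is used: in the deposited FPKM values, which the authors scaled by their own gene lengths, the control mean was 259 for Cox8a, 188 for Atp5b and 23.4 for Cox6c.

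**Figure D3:**
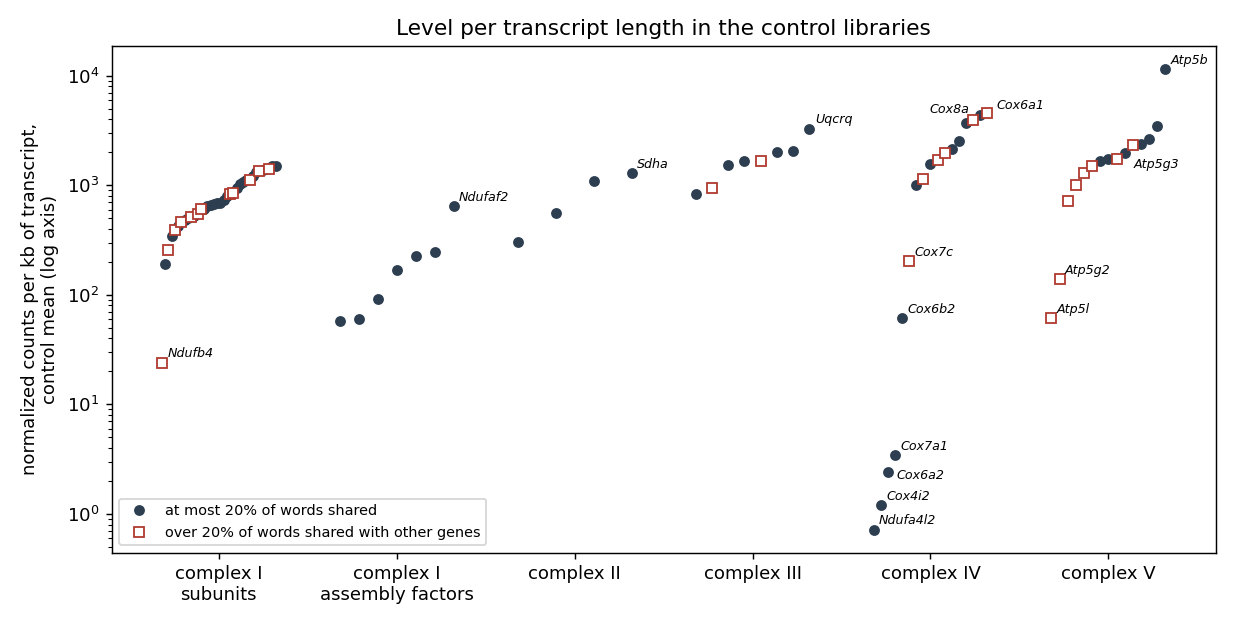
Mean level of each subunit and complex I assembly factor over the 3 control libraries, in normalized counts per kb of its reference transcript (log axis), by complex and in rising order (filled circles: at most 20% of sequence words shared with other genes, open squares: over 20%), with genes at 0 and pseudogenes left out. Atp5b is the highest point at 11513 per kb, and the 4 lowest points are the tissue paralogs Ndufa4l2, Cox4i2, Cox6a2 and Cox7a1.

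Summed over its nuclear genes, complex V had the ratio between the groups furthest from 1 among the 5 complexes. Its sum was 46927, 47452 and 47276 normalized counts in the control libraries, against 42283, 42028 and 43338 under D-gal, a ratio of 0.901 between the group means. Much of this sum is Atp5b, and the F1 genes together had a ratio of 0.896 and the Fo and stalk genes 0.919. Complex IV had 19596, 17904 and 19548 against 17416, 17679 and 18411 (ratio 0.938), so that 1 control library lay within the range of the D-gal libraries. The sums of complexes I, II and III overlapped between the groups, with ratios of 0.997, 1.02 and 0.990. All 96 members together took 0.652% to 0.665% of the normalized counts of a control library and 0.632% to 0.652% of those of a D-gal library. These ratios are values over the members and were not tested.

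Of the 13 subunits encoded by the mitochondrial genome, 8 were higher and 0 lower, with a median log2 fold change of 0.12. The share called higher was 61.5%, against 16.9% of all genes tested. Their sum was 753196, 723572 and 734300 normalized counts in the control libraries, against 829898, 806641 and 806871 under D-gal, a ratio of 1.11. In complex V, mt-Atp6 rose from 79287, 77250 and 79026 to 93465, 88801 and 90749 (log2 fold change 0.21 ± 0.02, adjusted p = 0.000423), while the nuclear partners Atp5a1, Atp5b, Atp5c1 and Atp5j2 fell. In complex IV, the catalytic subunit mt-Co1 rose from 211149, 202886 and 205302 to 238079, 240019 and 236362 (log2 fold change 0.21 ± 0.02, adjusted p = 0.000170). The cytochrome b gene of complex III, mt-Cytb, was not called (log2 fold change 0.02 ± 0.03). Of their sequence words, mt-Atp6 shares 99.5%, mt-Co1 63.9% and mt-Cytb 6.55% with other annotated genes. For mt-Co2, mt-Co3, mt-Nd4l, mt-Nd3 and mt-Nd4 the shares are 100%, 99.9%, 98.9%, 98.1% and 62.8%, whereas mt-Nd1, mt-Nd2, mt-Nd5, mt-Nd6 and mt-Atp8 share at most 16.8%. The counts of the genes with much shared sequence are therefore less certain. The same holds for the number called higher, the sum and the ratios for complexes I, IV and V. The ratio of nuclear to mitochondrial counts was 0.434, 0.451 and 0.440 in the control libraries, against 0.337, 0.350 and 0.356 under D-gal for complex V. For complex IV it was 0.0568, 0.0539 and 0.0580 against 0.0455, 0.0465 and 0.0487, and for complex I 0.129, 0.133 and 0.128 against 0.115, 0.119 and 0.123. In these 3 complexes all D-gal libraries lay below all control libraries, whereas in complex III they overlapped, at 0.114 to 0.118 and 0.108 to 0.116. Such ratios compare libraries only, since the counts of the 2 genomes depend on gene length and on how the libraries captured each kind of RNA.

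**Figure D4:**
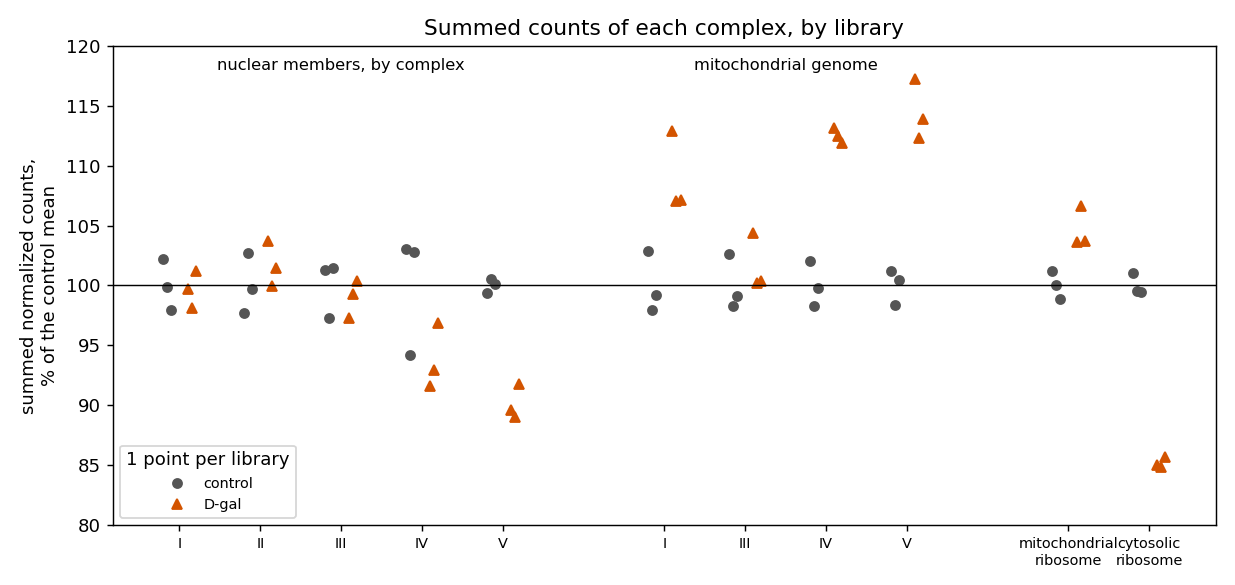
Summed normalized counts of the nuclear members of each complex, of the subunits encoded by the mitochondrial genome and of the mitochondrial and cytosolic ribosomal protein genes, in each library as a percentage of the control mean (grey circles: control, orange triangles: D-gal). The nuclear sums of complex V lie below the control libraries, those of the mitochondrial genome for complexes I, IV and V above them, and the cytosolic ribosomal proteins lowest, at a ratio of 0.851.

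The plot of sums also holds 2 groups of ribosomal protein genes, which serve translation in the mitochondrion and in the cytosol. Of 77 mitochondrial ribosomal protein genes tested, 11 rose and 4 fell (median log2 fold change 0.04), led by Mrpl28 (log2 fold change -0.36 ± 0.05, adjusted p = 0.00119) and Mrpl45 (log2 fold change 0.33 ± 0.05, adjusted p = 0.00166). Of 77 cytosolic ones tested, 6 rose and 41 fell (median -0.21), led by Rpl7 (log2 fold change -0.33 ± 0.03, adjusted p = 9.67e-05) and Rps4x (log2 fold change -0.29 ± 0.03, adjusted p = 0.000118). The share of nuclear respiratory chain members called, 17.4%, was thus near the 19.5% of mitochondrial and below the 61.0% of cytosolic ribosomal protein genes. Of all genes tested, 34.8% were called, and these differences were not tested.

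Among 13 tested regulators of mitochondrial biogenesis, 3 rose and 3 fell (46.15% called, against 34.8% of all genes tested), and 1 passed both thresholds. Ppargc1a, the coactivator PGC-1α that is known to drive respiratory chain transcription in muscle, had 44.4, 46.5 and 42.4 normalized counts in the control libraries, against 94.3, 100.5 and 109.7 under D-gal (log2 fold change 1.19 ± 0.14, adjusted p = 0.000461). Esrra, a nuclear receptor that works with PGC-1α, rose from 614, 504 and 527 to 649.8, 675 and 803 (log2 fold change 0.37 ± 0.10, adjusted p = 0.0267). Polrmt, the mitochondrial RNA polymerase, rose by 0.22 ± 0.07 on the log2 scale (adjusted p = 0.0325). Gabpb2, a partner of the ETS factor GABP, fell from 1196, 1171 and 1212 to 959.5, 1020 and 889 (log2 fold change -0.32 ± 0.06, adjusted p = 0.00395). Tfam, which packs mitochondrial DNA and starts its transcription, had a log2 fold change of -0.17 ± 0.05 (adjusted p = 0.0230), and Lrpprc, which stabilizes mitochondrial mRNA, one of -0.17 ± 0.04 (adjusted p = 0.00959). Of the factors whose letters were searched in the promoters, Nrf1, Gabpa and Yy1 were read, and none of them was called. Their log2 fold changes were 0.02 ± 0.07 for Nrf1, 0.03 ± 0.04 for Gabpa and -0.01 ± 0.05 for Yy1. SP1, other ETS factors and the proteins that bind the TATA box were not among the genes read. Ppargc1b was not tested, at 4.08 to 8.08 normalized counts in the control libraries and 0 to 1.09 in the D-gal libraries.

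**Figure D5:**
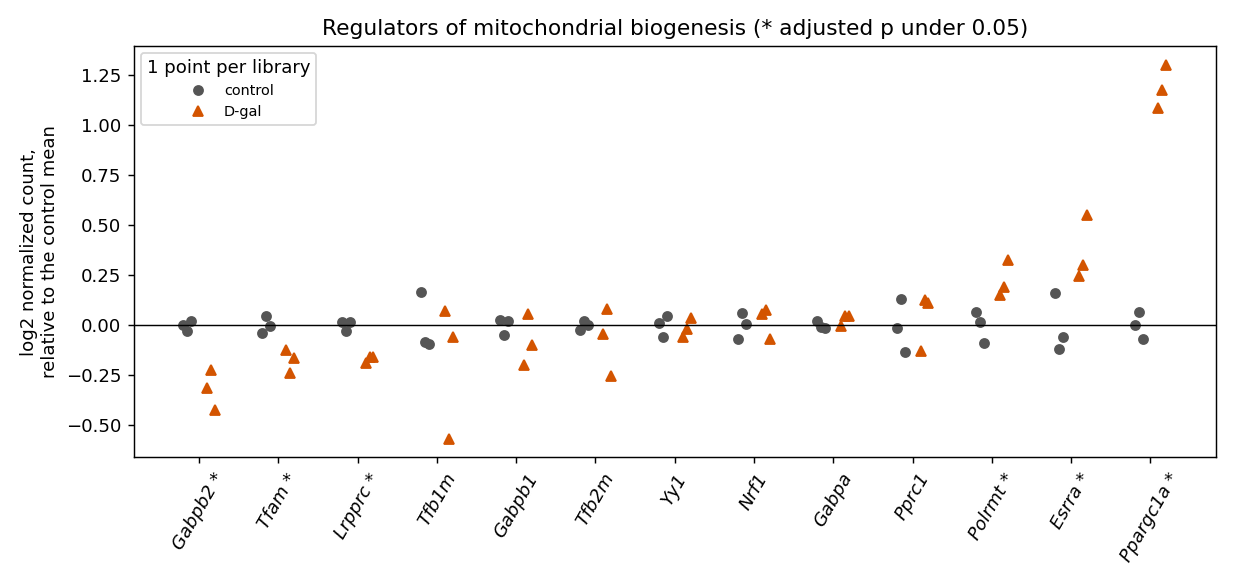
Normalized count of each tested regulator of mitochondrial biogenesis in each library, on the log2 scale relative to the control mean (grey circles: control, orange triangles: D-gal), ordered by fold change, with a star for an adjusted p under 0.05. Ppargc1a stands apart at a log2 fold change of 1.19, and Nrf1, Gabpa and Yy1 lie around 0.

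The plot of regulators shows that only Ppargc1a among the 13 moved by more than the fold change threshold. Genes of the mobile electron carriers, ubiquinone and cytochrome c, were called in 4 of 12 (3 higher, 1 lower, median log2 fold change 0.19). This share of 33.3% was near the 34.8% of all genes tested. Coq7, an enzyme of ubiquinone synthesis, fell from 377, 370.5 and 334 to 273, 283 and 267 normalized counts (log2 fold change -0.40 ± 0.08, adjusted p = 0.00634), while Coq9, which binds to Coq7, rose from 317, 392 and 347 to 465, 490.3 and 422 (log2 fold change 0.38 ± 0.10, adjusted p = 0.0190). Both belong to the same synthesis step and moved in opposite directions.

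Sequence shared with other genes limits several members. Of the 96 members, 32 share over 20% of their words of 31 bases with other annotated genes, among them 4 of the 15 called (Ndufb2, Ndufab1, Ndufa11 and Uqcrb). Of the 29 such members tested, 4 were called (13.8%), and of the 57 that share at most 20%, 11 were called (19.3%). Further, 29 members overlap a gene on the other strand and 5 one on the same strand. Whether counting used the strand is not given in the sources used here, so that reads of overlapping genes may have been counted together.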

How the data were processed

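RNA-seq libraries of the D-gal group and the control group (n = 3 each) were grouped by the labels. The deposited table holds a count of reads per gene and library, which the authors left without normalization, and FPKM values, which the authors scaled by gene length and library total. The submitters' processing notes name HISAT2 (version 2.0.4), and the methods name FastQC and Trimmomatic and a small RNA kit, whereas the labels name an RNA-seq kit. The counting tool, strand setting, build and annotation are not given in the sources used here. Identifiers of all 96 members are in GENCODE M21 (GRCm38), 67 of them at the same start and end, and positions are those of the deposited table.

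Counts were tested with edgeR (version 4.0.16, R 4.3.3) after TMM scaling and filterByExpr, without covariates. Standard errors were taken as the size of the log2 fold change over the root of its F statistic. Total counts were 16876087 to 20830349 in control and 13759108 to 15157064 in D-gal libraries, and replicates differed by more than sampling noise. The deviations of libraries with the same replicate number did not move together (r = -0.0114, -0.00269 and 0.0277 across genes), so no pairing was used. Alternatives were DESeq2 (version 1.42.0), limma (version 3.58.1) on log2(FPKM + 1), RLE size factors, other filters (none, or at least 10 counts in every library), a replicate block, each library left out, counts thinned to the smallest library, offsets for GC content and length, an adjusted p under 0.01 and leaving out members with shared sequence. The scripts were tested on simulated data.

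Named were members past both thresholds, of each complex the 3 with the smallest p, the 5 highest per length, members with tissue paralogs, and of each other list the 2 genes with the smallest p. The members and gene lists were chosen with earlier results of these data known. The reference transcript is the best ranked basic one, and the shortest among equals. Promoter windows are RefSeq's, with the build GRCm38.p6.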

Additional observations from a re-analysis of the deposited data

How the results depend on the processing

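No member passed both thresholds in any of the 14 other settings of the fit, and the members called numbered between 10 and 18 (15 as reported). Leaving out 1 library gave 5 to 6 higher and 5 to 8 lower members, with the fewest lower without D-gal replicate 2. With limma on log2(FPKM + 1), 10 members were higher and 120 of all genes passed both thresholds (564 as reported), and at an adjusted p under 0.01, 5 members were lower. The median of complex I turned to 0.011 with limma and 0.012 with the GC and length offsets. The median of complex V was -0.085 with limma, -0.058 with the GC and length offsets, -0.20 without members of shared sequence and -0.14 to -0.10 with 1 library left out. The causes were not tested. With the replicate number as a block, 5 members were higher and 6 lower, and 530 genes passed both thresholds. Uncalled members near 0 changed sign: Cox8a to 0.0084 with limma and 0.040 with the offsets (-0.10 to 0.035 with 1 library left out), Cox4i1 to 0.0067 and 0.0098 (-0.19 to 0.075), and Cox6b2 to 0.012 after thinning (-0.33 to 0.17). Of 378 values of 27 named members, 345 kept direction and call. Depth limits the genes at low counts, such as Cox6b2 and Ndufb4.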

Other observations

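Of the 13 citric acid cycle genes, which supply NADH and succinate to complexes I and II, 3 rose and 4 fell. This is 53.85% called, against 34.8% of all genes tested. Their median log2 fold change was 0.01, and none passed both thresholds. Cs, citrate synthase, fell from 8796, 8897 and 8950 to 7914, 8053 and 7899 normalized counts (log2 fold change -0.16 ± 0.03, adjusted p = 0.00251 in edgeR's quasi-likelihood test). Ogdh, Idh3a and Dld rose, and Dlst and Mdh2 were among those that fell, so that the subunits of the oxoglutarate dehydrogenase complex did not move together.

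In a pair of assembly genes of different complexes, the same libraries stood apart. These genes were noticed after their values were seen. Ndufaf4 had 156 normalized counts in control replicate 3 beside 435 and 415 in the other control libraries, and 518 in D-gal replicate 3 beside 220.0 and 197. Tmem70 had 426 beside 759 and 756, and 863 beside 481 and 469. Neither gene was called, and the relation was not tested.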
